A study of Mus musculus with 2 samples.

Results

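The genes described here encode proteins of blood coagulation, fibrinolysis and complement, with 2 related serpins (serine protease inhibitors), and were taken from a list of 55 symbols. Probe sets (groups of short oligonucleotides that report on a transcript) were assigned to these symbols through the annotation of the array. A probe set that paired with 1 symbol was found for 51 of the 55 genes, out of 18194 genes named on the array. They comprised 24 coagulation genes, 5 fibrinolysis genes, 21 complement genes and Serpinf1, which encodes pigment epithelium-derived factor, a serpin outside these 3 cascades. C1s was measured under its current symbol C1s1. Serpina1a, whose probe set is shared with another gene, and Serpine2, C3 and Cfd were not analysed here.

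Transcripts were measured in total RNA of the whole mouse embryo, wild type and at stage E14.5, on a pair of Affymetrix arrays, array 1 and array 2, which are duplicates of 1 condition. Embryos of this stage came from the NMRI or C57/BL6 strain in the study, and the strain on the arrays is not given in the sources used here. Nothing says that the duplicates came from separate embryos, so their spread may be a technical one. Signals are intensities on a linear scale, with a trimmed mean of 100 on each array, and with a single pair of arrays the precision of each value is limited.

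In coagulation, proteases circulating as inactive precursors activate each other in turn until thrombin converts fibrinogen to fibrin, and anticoagulants on the vessel wall and in plasma limit this chain. Fibrinolysis removes the clot through plasmin, which activators release from plasminogen. Complement is a second set of plasma proteases, which marks surfaces with fragments of C3 and ends in a pore made of the terminal components. Most of these plasma proteins are made by hepatocytes, whereas endothelial cells, macrophages and megakaryocytes supply others, and in the mid-gestation mouse embryo the liver is at the same time the main site of blood formation.

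The call "above background" required that a gene exceeded the bound of each array with 1 or more of its probe sets. As the bound served the 95th percentile of the signals of 81 receptor probe sets (olfactory, vomeronasal and bitter taste receptors, taken as silent), which came to 27.9 on array 1 and to 33.8 on array 2. Of the members, 37 of 51 (72.5%) were above background, compared with 65.5% of all genes on the array. The share of all genes depended on how many probe sets a gene had. Among members with 1 probe set 27 of 37 (73.0%) passed, beside 48.6% of all such genes, and among members with several probe sets 10 of 14 (71.4%) passed, beside 82.8% of all such genes. Coagulation genes passed in 19 of 24 cases (79.2%), fibrinolysis genes in 4 of 5 (80.0%) and complement genes in 13 of 21 (61.9%), so that the share was above that of all genes for coagulation and near it for complement. With the 99th percentile as the bound the members as a whole were at 60.8%, against 61.9% of all genes, and with array 1 alone complement was at 76.2%, against 69.0%, so neither the excess of the members nor the lower share of complement held under every setting. These shares have no test, since genes are not replicates of a condition. The counts by role given below cover few genes each and are to be read beside the same 65.5% of all genes. Of the 14 members not above background, 5 passed on array 1 only, 1 on array 2 only and 8 on neither array. All genes leaned the same way, with 628 on array 1 only and 232 on array 2 only.

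**Figure D1:**
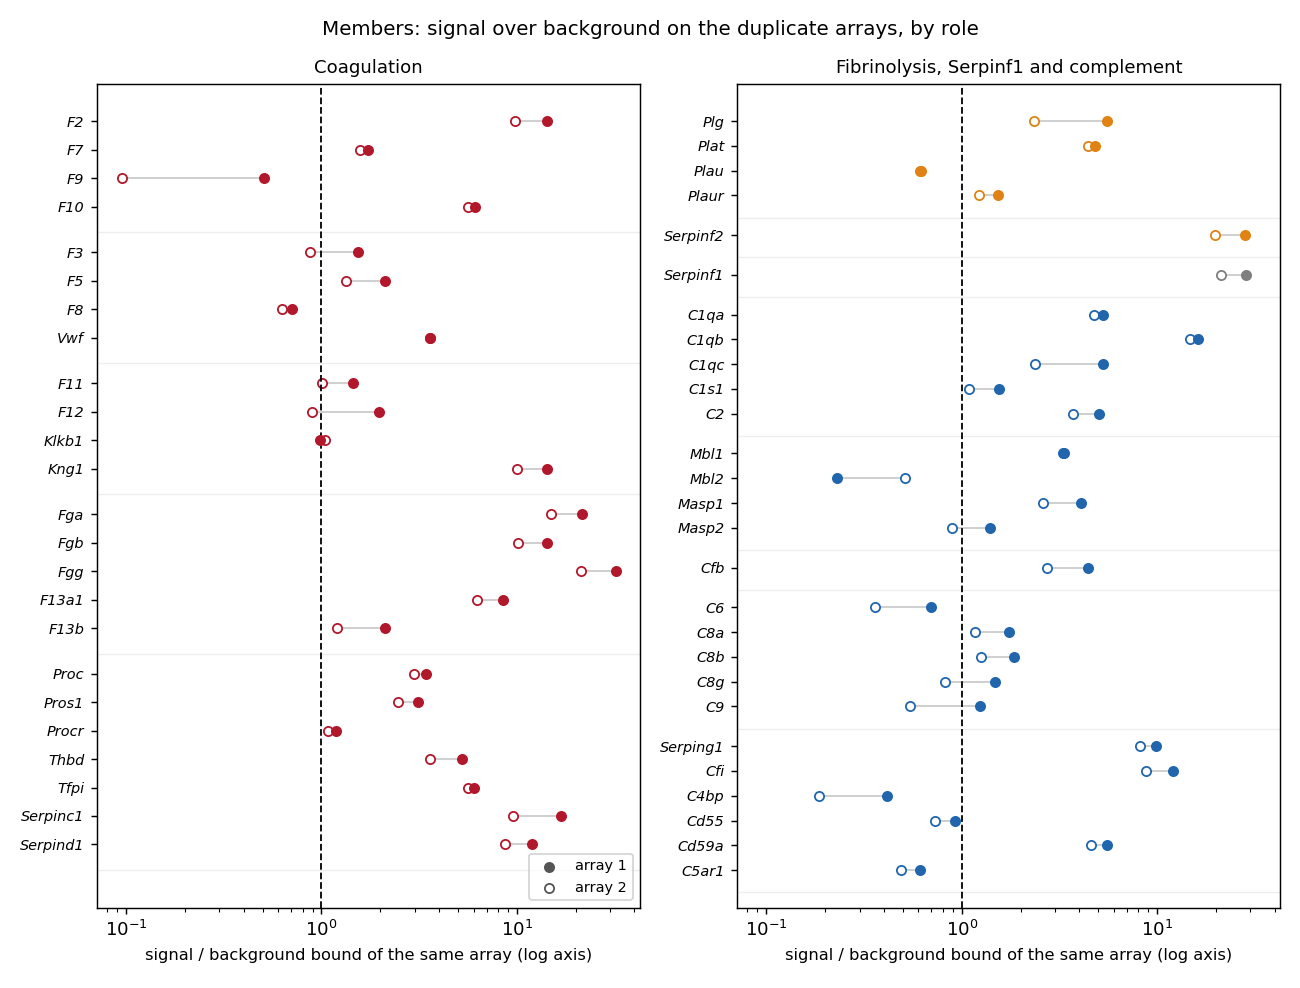
Signal of each measured member divided by the background bound of the same array, on a log axis, with array 1 filled and array 2 open; rows are grouped by role and the dashed line marks the bound. At its probe set with the highest mean signal, Fgg lay 32.0 times above the bound on array 1 and 21.3 times on array 2, while the terminal complement genes C8a, C8b, C8g and C9 stayed under 2 times the bound.

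Markers of the sources of these proteins were found in the RNA. All 8 measured hepatocyte markers (Hnf4a and Alb among them) and all 7 endothelial markers were above background. Macrophage markers passed in 7 of 9 cases (77.8%) and markers of megakaryocytes and platelets in 5 of 7 (71.4%). These shares were not far from the 65.5% of all genes. The macrophage exceptions were Cd163, at 4.6 on array 1 and 1.6 on array 2, and Aif1, at 30.3 and 33.4. The megakaryocyte exceptions were Gp9, at 35.6 and 20.7, and Gp6, at 33.2 and 3.6, which exceeded the bound on array 1 only. None of the 3 measured placental markers, 4 markers of visceral yolk sac endoderm and 4 adult liver markers passed, although Cubn and Lrp2 of the yolk sac list exceeded the bound on array 2 and Cyp3a11 of the adult liver list on array 1. In RNA of a whole embryo, fewer cells of a type and less RNA per cell cannot be told apart, and a signal does not say in which organ a transcript was made.

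The genes of fibrin and its cross-linking enzyme were above background in all 5 cases. Fibrinogen is assembled from 3 chains, which are encoded side by side on chromosome 3. Fga, the alpha chain, had signals of 598.8 on array 1 and 508.1 on array 2, Fgb, the beta chain, 394.9 and 342.3, and Fgg, the gamma chain, 893.6 and 721.6. Each of the chains therefore lay at least 10.1 times above the bound on both arrays, and each was measured by 1 probe set. Factor XIII cross-links fibrin. F13a1, its catalytic A subunit, which is made by macrophages and megakaryocytes, had 237.4 on array 1 and 212.2 on array 2. F13b, the carrier B subunit from hepatocytes, had 58.8 and 40.5, which is 2.11 and 1.2 times the bound, so both subunits passed but F13b only narrowly on array 2.

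The 150 bases before the start of the fibrinogen genes are shown because these 3 genes are neighbours whose products form 1 protein and whose signals all passed the bound. The sequences are those of RefSeq for GRCm38.p6, and capitals mark the letters GTTAAT (the core of an HNF1 half-site, read on both strands, so that ATTAAC is the same word) and TTGCNNAA (a C/EBP-like word, on the other strand TTNNGCAA). HNF1 and C/EBP factors are known regulators of hepatocyte genes.
Fga, chr3:83026003-83026152, plus strand: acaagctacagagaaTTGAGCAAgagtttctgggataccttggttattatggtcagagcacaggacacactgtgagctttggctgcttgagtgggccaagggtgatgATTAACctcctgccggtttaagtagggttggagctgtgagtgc
Fgb, chr3:83049864-83050013, minus strand: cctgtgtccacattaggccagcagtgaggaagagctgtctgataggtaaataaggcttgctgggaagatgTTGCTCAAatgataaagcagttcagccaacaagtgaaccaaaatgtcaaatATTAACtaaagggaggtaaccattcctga
Fgg, chr3:83007574-83007723, plus strand: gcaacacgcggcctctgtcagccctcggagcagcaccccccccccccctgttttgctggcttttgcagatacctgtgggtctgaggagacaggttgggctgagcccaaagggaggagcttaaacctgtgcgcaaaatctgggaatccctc

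Fga and Fgb each held 1 match to both words, with the GTTAAT word ending 37 bases before the start of Fga and 23 bases before that of Fgb. The window of Fgg held neither word. Of 32851 windows of this length before all annotated starts, 3.71% held GTTAAT and 5.46% held TTGCNNAA. A window was given for 38 of the 51 measured members. GTTAAT was held by 5 of these, namely Fga, Fgb, F13b, C8a and C4bp (5 of the 25 genes of hepatocyte products and 0 of the 13 others). TTGCNNAA was held by 6, namely Fga, Fgb, F9, F11, C9 and Plaur (5 of the same 25 and 1 of the 13 others). These groups are small, and the difference between them was not tested. Genes with a word included some above background (Fga, Fgb, F11) and some below it (C4bp, F9). A match of letters is not a binding site.

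The vitamin K-dependent proteases of the cascade were above background in 3 of 4 cases. F2, which encodes prothrombin, had signals of 398.1 on array 1 and 331.4 on array 2. F10, which encodes the factor X that activates prothrombin, had 170.0 and 189.5 at its probe set with the highest mean. F7, which encodes the factor VII that starts the cascade together with tissue factor, had 48.3 and 52.9, or 1.73 and 1.57 times the bound. The exception was F9, the gene mutated in haemophilia B, with 14.1 on array 1 and 3.2 on array 2, below the bound on both. Of the enzymes that make these proteins functional, Vkorc1, the vitamin K reductase, had 887.0 and 846.5, and Ggcx, the carboxylase, 48.3 and 53.8. Both passed, but Ggcx did so with 1 of its 2 probe sets, at 1.73 and 1.59 times the bound.

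The initiator and the cofactors were divided. Vwf, the gene of von Willebrand factor, which tethers platelets and carries factor VIII, had 100.5 on array 1 and 121.6 on array 2. F5, the cofactor of factor X, passed at 59.0 and 44.8, through both of its probe sets. F8, the cofactor of factor IX that is made by endothelial cells and is mutated in haemophilia A, was below the bound on both arrays, at 19.7 and 21.2. F3, which encodes tissue factor, the membrane protein that initiates coagulation, was above the bound only on array 1, with 43.1 on that array and 29.4 on array 2. Thus F8 and F9, each measured by 1 probe set, lay below the bound, while F7, F10 and F5 passed and F3 exceeded it on array 1 only. Of those that passed, F7 and F5 were near the bound, F5 at 2.11 times it on array 1 and 1.33 times on array 2. Transcripts with a signal under the bound may still be present. The genes of the cargo receptor for factors V and VIII, Lman1 and Mcfd2, passed at 560.1 and 452.2 and at 569.6 and 494.6.

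In the contact system, which can start coagulation on charged surfaces and releases bradykinin from kininogen, 2 of 4 genes passed. Kng1, the kininogen gene, had signals of 398.9 on array 1 and 338.6 on array 2, and its other probe set also passed, at 136.6 and 135.8. F11, which encodes factor XI, passed by a small margin, at 40.5 and 34.2 against bounds of 27.9 and 33.8. F12, the gene of factor XII, was above the bound only on array 1 (54.8 there and 30.1 on array 2) and Klkb1, the gene of prekallikrein, only on array 2 (27.4 on array 1 and 35.3 on array 2). The substrate thus stood clear of the bound, and the proteases of this system stood on both sides of it.

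**Figure D2:**
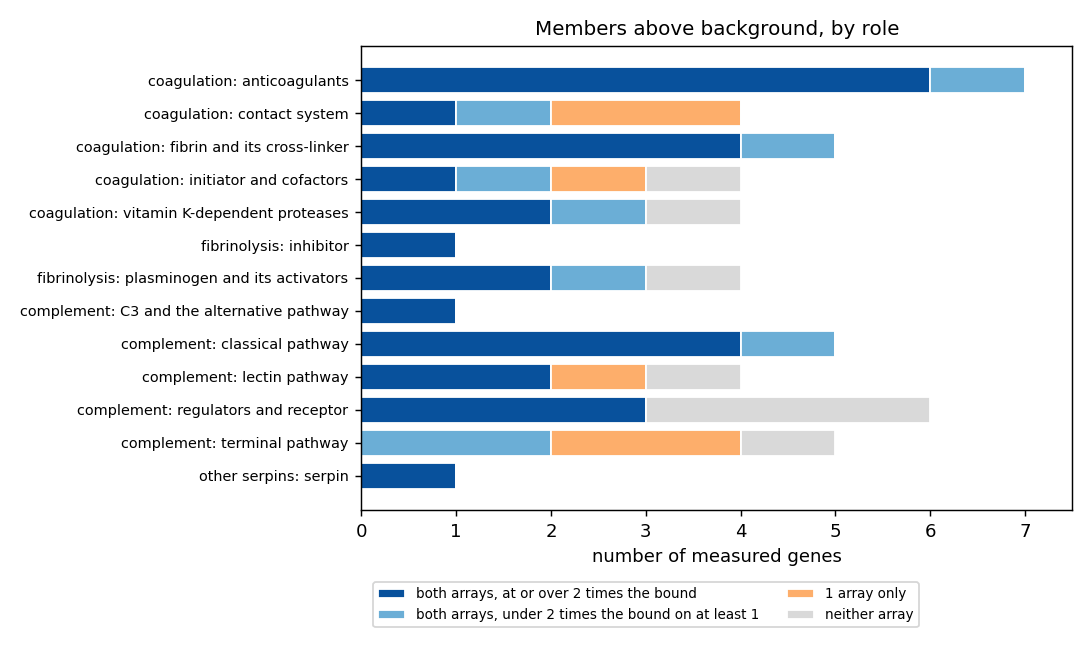
Number of measured members in each role, divided into genes above background on both arrays (dark blue at or over 2 times the bound, light blue under 2 times it on at least 1 array), on 1 array only (orange) and on neither (grey). All 7 anticoagulants, all 5 genes of fibrin and its cross-linker and all 5 of the classical pathway passed, and no terminal complement member reached 2 times the bound on both arrays. Of all genes on the array, 65.5% passed.

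All 7 measured anticoagulant genes among the members were above background, beside 65.5% of all genes. In plasma, antithrombin inhibits thrombin and factor X, and its gene Serpinc1 had signals of 470.6 on array 1 and 324.6 on array 2. Serpind1, which encodes heparin cofactor II, had 335.6 and 293.9, and both serpin genes therefore stood at least 8.7 times above the bound. In the protein C pathway Proc had 95.8 and 99.9 and its cofactor gene Pros1 87.3 and 82.7. Thbd, which encodes the thrombomodulin that turns thrombin into an activator of protein C, had 146.1 and 121.8. Procr, the endothelial receptor of protein C, was the weakest relative to the bound, at 33.3 and 36.6, or 1.19 and 1.08 times it, on a probe set of a kind open to cross-hybridisation. Tfpi, the inhibitor of tissue factor, had 168.5 and 190.2. Loss of Thbd or of Tfpi function is known to be lethal to mouse embryos. Zymogen, cofactor and receptor genes of the protein C pathway thus all passed. Serpina5, a serpin gene of the further coagulation list that is not a member, lay below the bound, at 2.0 on array 1 and 2.6 on array 2.

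Of the fibrinolysis genes, 4 of 5 passed. Plg, the gene of plasminogen, had signals of 153.6 on array 1 and 79.5 on array 2. Plat, which encodes tissue plasminogen activator, had 133.8 and 149.4, whereas Plau, which encodes urokinase, the other activator, had 17.1 and 20.9 and its second probe set 8.0 and 4.6, all below the bound. Plaur, the urokinase receptor, passed at 42.6 and 41.2, which is 1.53 and 1.22 times the bound, and did not pass with the 99th percentile as the bound. Serpinf2, the gene of alpha-2-antiplasmin, the inhibitor of plasmin, had 787.4 and 667.2, or 28.2 and 19.7 times the bound. Its neighbour on chromosome 11, Serpinf1, had 796.6 and 717.8. Substrate, inhibitor and 1 of the activators were thus clear of the bound.

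The classical pathway of complement passed in all 5 measured members. C1q, its recognition molecule, is made mainly by macrophages from 3 chains whose genes lie side by side on chromosome 4. C1qa had signals of 148.2 on array 1 and 161.0 on array 2, and C1qb had 448.3 and 497.6, with its other probe sets at 324.7 and 368.1 and at 272.2 and 266.7. Of the C1qb signals, only 272.2 and 266.7 came from a probe set not of a kind open to cross-hybridisation. C1qc had 148.0 on array 1 and 80.4 on array 2. All 3 chains therefore passed, but C1qc was lower on array 2 while C1qa and the probe set of C1qb with the highest mean were slightly higher there. C1s1, the gene of the protease C1s, had 43.3 and 37.0, which is 1.55 and 1.09 times the bound, on a probe set of a kind open to cross-hybridisation. C2, the next protease, had 140.4 and 125.7 on 1 probe set of the same kind, and its 2 other probe sets did not pass on both arrays. Of classical pathway genes that are not members, C1ra passed on array 1 only, and C4a and C4b were not measured.

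The lectin pathway and C3 activation were represented in part. Mbl1, which encodes a mannose-binding lectin, had signals of 93.2 on array 1 and 111.6 on array 2, and Mbl2, the second mannose-binding lectin gene of the mouse, 6.4 and 17.4, below the bound. Masp1, a protease bound to these lectins, had 114.0 and 87.8 on a probe set of a kind open to cross-hybridisation, and 4 of its 5 probe sets passed. Among these was a probe set not of that kind, at 81.8 on array 1 and 89.4 on array 2. Masp2, the lectin-bound protease that cleaves C2 and C4, exceeded the bound on array 1 alone, at 39.0 there and 30.3 on array 2. One lectin gene and 1 protease gene thus passed out of each pair. Cfb, which encodes factor B, the protease of the alternative pathway and neighbour of C2 on chromosome 17, had 123.9 and 92.2.

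In the terminal pathway, which assembles the membrane pore, 2 of 5 members passed, and none of these 5 stood 2 times above the bound on both arrays. C8a had signals of 48.9 on array 1 and 39.4 on array 2, and its neighbour C8b on chromosome 4 had 51.9 and 42.7. C8g, the gene of the remaining C8 chain, exceeded the bound on array 1 alone, at 41.4, with 27.9 on array 2. C9, the polymerising subunit of the pore, was likewise above it only on array 1, at 34.5 and 18.3. C6 lay below the bound on both arrays, at 19.4 and 12.2. Hc, the gene of C5, which is not a listed member and starts this pathway, was measured at 149.3 and 126.0, above background. The genes of C6, C8 and C9 therefore lay around or below the bound, and that of C5 above it. C7, another later component, was not measured.

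Complement regulators passed in 3 of 5 cases, and the receptor gene did not. Serping1, which encodes C1 inhibitor, had signals of 274.7 on array 1 and 277.1 on array 2, and Cfi, the gene of factor I, which cleaves C3 and C4 fragments, 338.3 and 296.0. Cd59a, a membrane protein that blocks the pore, had 153.9 and 154.3. C4bp, a plasma cofactor of factor I, was below the bound at 11.6 and 6.3, and so was Cd55, which dissociates the C3 convertase on cells, in all 3 probe sets, with signals from 20.2 to 26.9. C5ar1, the receptor of the C5a fragment on myeloid cells, had 17.0 and 16.5. Among the membrane regulators Cd59a therefore stood apart from Cd55 in its call. Cr1l, the rodent regulator also called Crry and no listed member, is known to protect the mouse embryo from maternal complement, and it passed at 199.1 and 207.7.

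A further list of 48 genes of the same pathways, which are not members, gave 27 of 36 measured genes above background (75.0%), beside 65.5% of all genes. Without the probe sets open to cross-hybridisation the share was 69.7%, against 64.3% of all genes. Among coagulation genes 9 of 12 passed, with F2r, the thrombin receptor, at 961.4 on array 1 and 990.6 on array 2, and with Serpina5, F2rl3 and Hrg as the exceptions. Among fibrinolysis genes 6 of 7 passed, with Serpinb2, an inhibitor of urokinase, as the exception at 17.3 and 16.9. Anxa2 (2061.3 and 2049.5) and S100a10 (984.1 and 1114.2), which together bind plasminogen and its activator at the cell surface, were among those that passed. Among complement genes 12 of 17 passed, including the inhibitors of the pore Vtn (732.0 and 575.3) and Clu (412.7 and 518.8). The exceptions were C1ra and Cd46, which passed on array 1 only, and Cr2, Vsig4 and Csmd1. C1ra, which encodes the partner protease of C1s, lay at the bound on array 1 (28.3, 1.01 times it) and below it on array 2 (22.1, 0.654 times it).

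**Figure D3:**
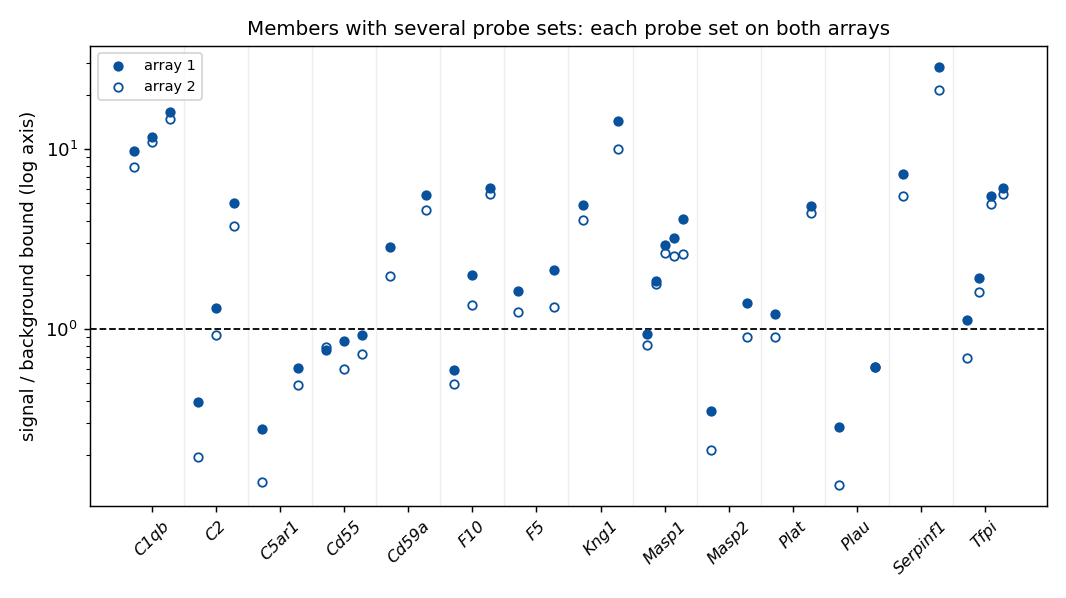
Signal divided by the background bound of the same array, on a log axis, for every probe set of the 14 members with several probe sets; array 1 is filled, array 2 is open and the dashed line marks the bound. The probe sets of C2, F10, Masp1, Plat and Tfpi lie on both sides of the line.

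Probe sets of 1 gene did not always give the same call. Of the 14 members with several probe sets, 5 had some probe sets above background on both arrays and others not. For F10 the signals were 170.0 on array 1 and 189.5 on array 2, 55.6 and 45.8, and 16.6 and 16.7 across its 3 probe sets. For C2 they were 140.4 and 125.7, 36.6 and 31.3, and 10.9 and 6.6. Tfpi passed with 3 of 4 probe sets and Plat with 1 of 2. In the other 9 genes all probe sets gave the same call, as in Kng1, Serpinf1, Cd59a and F5 above the bound and Plau, Cd55, C5ar1 and Masp2 not above it on both arrays, with C1qb as the remaining gene, above it in full.

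The duplicates were compared as the log2 signal of array 1 minus that of array 2 at the probe set of each gene with the highest mean, for genes above background on both arrays at that probe set, after centring on the median of all probe sets above background. The 37 members had a median difference of 0.20, with 26 (70.3%) higher on array 1, while all 11900 genes had a median of 0.017, with 53.7% higher on array 1. The medians of coagulation, fibrinolysis and complement genes were 0.22 (19 genes), 0.15 (4 genes) and 0.20 (13 genes). The complement median was 0.04 (11 genes) without the probe sets open to cross-hybridisation, where all genes had 0.02, and the fibrinolysis median was 0.06 (5 genes) with no filter and a pseudocount of 16. Most single members differed by less than 1.5-fold. The differences ranged from -0.27 for Vwf to 0.96 for Plg, and 95% of all genes lay between -0.52 and 0.45. More than 1.5-fold apart were 2 of the 37 members (5.41%), compared with 2.71% of all genes. These were Plg, 1.95-fold higher on array 1, and C1qc, 1.85-fold higher, each measured by 1 probe set. Serpinc1 and F13b followed, each with a difference of 0.55 (1.46-fold).

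**Figure D4:**
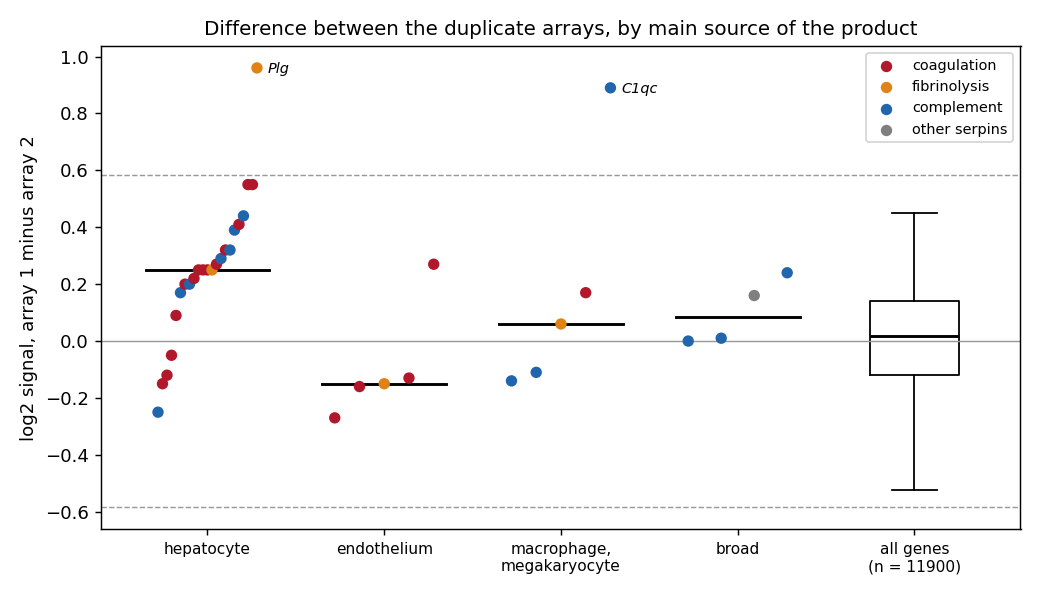
Difference of the log2 signal between array 1 and array 2 (array 1 minus array 2, centred) for the members above background, grouped by the main source of the product and coloured by cascade, with the median of each group as a black bar; the box shows all 11900 genes (median, quartiles and whiskers that span 95% of the genes), and the dashed lines mark 1.5-fold. Most genes of hepatocyte products lie above 0 and most genes of endothelial products below it, in groups chosen after seeing the data. Of all genes, 53.7% lie above 0.

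The members were then grouped by the cell type that is known as the main source of the product. This grouping was chosen after seeing the data, so the counts below describe these arrays only. Of all genes, 53.7% were higher on array 1. Genes of hepatocyte products were higher on array 1 in 19 of 23 cases, with a median of 0.25 and a range from -0.25 (Mbl1) to 0.96 (Plg). Genes of endothelial products were higher on array 1 in 1 of 5 cases, namely Thbd at 0.27, with a median of -0.15 and the others (Plat, Procr, Tfpi and Vwf) between -0.27 and -0.13. Genes of macrophage and megakaryocyte products had a median of 0.06 (5 genes), which included -0.11 for C1qa and 0.89 for C1qc. The 8 hepatocyte markers that are not members were higher on array 1 in 7 cases, with a median of 0.10, and their signals summed to 16353 on array 1 and 15014 on array 2. The 7 endothelial markers had a median of 0.12, with sums of 760.9 and 724.2, and so did not share the sign of the endothelial members, and the 9 macrophage markers had sums of 2347 and 2299. The part that the amount of liver or other RNA on each array had in these differences was not tested. Duplicates of 1 condition were compared throughout, and every member except Plg, C1qc, Serpinc1 and F13b lay inside the range that held 95% of all genes.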

How the data were processed

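The deposited values were signal intensity values, made by the authors with GCOS 1.3 (from the submitters' processing notes) on a linear scale from Affymetrix arrays, 1 per probe set and array, with a trimmed mean of 100. Probe sets with 1 symbol (34958 of 45101) named genes through the array annotation, with symbols updated through RefSeq gene identifiers (GRCm38.p6). The members and lists were chosen with earlier results of these data known. Roles and main sources of the products were assigned from general knowledge, and the source groups of the array differences were set after seeing the data. Every measured member is named with its signals at its probe set with the highest mean; other pathway genes are named where they are exceptions or complete a step. No test was made, since there is 1 condition. Alternatives were other bounds, probe set rules, each array alone, other scaling, and a pseudocount of 16 with no filter. The comparison of the duplicates, with its bounds, was checked on simulated arrays that had the same log2 noise at all signals. The call of a gene as above background was not part of that check. Python 3.11.15, pandas 2.3.3, numpy 2.4.6 and matplotlib 3.10.9 were used.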

Additional observations from a re-analysis of the deposited data

How the results depend on the processing

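Of the 37 members above background, 30 kept that call under all 8 alternatives. With the 99th percentile bound F11, F13b, Procr, Plaur, C1s1 and C8a were lost, with the array median as the bound F11, and without probe sets of the _s_at and _x_at kinds C2, while Procr and C1s1 had no probe set left. F3, F12, Klkb1 and Masp2 passed with the 90th percentile bound. The members above background numbered from 31 to 42 over the alternatives, with 42 on array 1 alone and 38 on array 2 alone, while the share of all genes ranged from 61.9% to 69.0%. The 31 were reached with the 99th percentile bound, where the members (60.8%) and the fibrinolysis genes (60.0%) were slightly under all genes (61.9%). Coagulation genes ranged from 16 to 22, fibrinolysis genes from 3 to 4, complement genes from 11 to 16 and the other pathway genes from 23 to 29. The median difference between the arrays stayed positive, from 0.17 to 0.21 for members, 0.17 to 0.23 for coagulation, 0.06 to 0.24 for fibrinolysis and 0.04 to 0.21 for complement genes, the lowest complement value being that without _s_at and _x_at probe sets and the lowest fibrinolysis value that with no filter. For genes of hepatocyte products, a grouping chosen after seeing the data, it ranged from 0.21 to 0.26. The number of members past 1.5-fold was 5 with no filter (2 with the filter) and a pseudocount of 16, where F9, F12 and C9, which do not pass the filter, joined Plg and C1qc (9.8% of 51 members, against 3.54% of all genes). It was 3 after quantile normalization, with F13b as the addition (8.11% of 37 members, against 2.44% of all genes). No paired analysis was possible because there is 1 group. Signals near the bound limit these calls: 9 of the 37 members were under 2 times it on at least 1 array. The same held for 21.0% of all genes above background.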
